A study of Mus musculus with 38 samples.

Results

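Med12 ChIP-seq peaks of Phase 1 cells that carried a control guide (sgCont) were compared with those of Phase 1 cells that carried guides against Cbfb (sgCbfb). All peaks of both lists were taken, which were 19053 in sgCont and 18099 in sgCbfb, 37152 of the 359759 peaks in the 17 lists of the series. A peak was called kept when it shared at least 1 bp with a peak of the other list, lost when it was listed in sgCont and not in sgCbfb, and gained in the reverse case. The cells of every group were Cas9-LPs, a lymphoid progenitor line made from Ebf1-deficient fetal liver of Cas9 knock-in mice. They were grown on OP9 stromal cells (the LP stage, without Notch signal) or on OP9-DLL4, which presents a Notch ligand (Phase 1 and Phase 2). Guides were delivered by retrovirus, the control guide against luciferase and several pooled guides against Cbfb. Each list was made from 2 replicate samples, is restricted to peaks that recurred in both, and carries no value per replicate. Shares below therefore come with 95% Wilson intervals for counting error only. They contain no spread between cultures, peaks are not replicates of a condition, and a lost peak is one that fell out of a list with a minimum score of 15, which does not show that Med12 was absent there. The study names as a limitation that few Cbfb-deficient cells could be obtained for ChIP and that noise was raised, which cannot be told apart from the loss of Cbfb here.

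Med12 is a subunit of the kinase module of Mediator, the coactivator complex that connects transcription factors at enhancers with RNA polymerase II at promoters. Cbfb is the shared partner of Runx1, Runx2 and Runx3. It does not itself contact DNA but raises the affinity of the RUNX proteins for their TGTGGTT motif. RUNX factors act in progenitors and again in early T cells, where Notch signals start the T-lineage program through genes such as Tcf7 and Gata3.

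The sequences of a few sites are given first, since the strings in them differed in frequency between the 3 classes of peaks. Each is the plus strand of mm10, a short stretch around the peak centre, with capitals on every match to 1 of the strings searched on both strands: RUNX (TGTGGTT or TGCGGTT, reverse AACCACA or AACCGCA), PU.1 (GAGGAAGT, reverse ACTTCCTC), AP-1 (TGACTCA or TGAGTCA), RBPJ (GTGGGAA, reverse TTCCCAC) and the CTCF core consensus. The first 5 were lost non-promoter sites with a RUNX string, nearest to Runx1, Zap70, Cd28, Gata3 and Tcf7. The Gata3 site held a pair of RUNX strings facing each other.
Runx1, lost, intron, chr16:92822104-92822204: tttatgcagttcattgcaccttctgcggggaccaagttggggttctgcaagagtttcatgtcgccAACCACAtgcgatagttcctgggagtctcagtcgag
Zap70, lost, intron, chr1:36835778-36835878: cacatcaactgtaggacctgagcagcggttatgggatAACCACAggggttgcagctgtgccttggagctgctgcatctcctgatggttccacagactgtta
Cd28, lost, intergenic, chr1:60702802-60702902: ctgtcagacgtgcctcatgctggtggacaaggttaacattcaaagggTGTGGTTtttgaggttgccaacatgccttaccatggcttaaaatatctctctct
Gata3, lost, intergenic, chr2:9558719-9558819: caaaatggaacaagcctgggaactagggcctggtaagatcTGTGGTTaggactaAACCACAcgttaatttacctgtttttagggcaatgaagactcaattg
Tcf7, lost, intergenic, chr11:52305404-52305504: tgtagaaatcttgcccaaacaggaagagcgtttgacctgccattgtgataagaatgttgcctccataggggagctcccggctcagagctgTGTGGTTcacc
A RUNX string was also found at kept sites, here an intronic site of Flt3 and an upstream site of Rbpj.
Flt3, kept, intron, chr5:147366547-147366647: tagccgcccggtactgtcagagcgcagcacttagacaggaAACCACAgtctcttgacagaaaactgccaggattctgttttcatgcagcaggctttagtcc
Rbpj, kept, intergenic, chr5:53490874-53490974: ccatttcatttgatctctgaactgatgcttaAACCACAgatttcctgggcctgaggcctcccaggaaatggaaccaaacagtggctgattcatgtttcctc
Some of the gained sites held the CTCF consensus and no RUNX string in the stretch shown. The 3 shown lie upstream of Tcf7, Tcf3 and Hhex. A gained site upstream of Fli1 held a PU.1 string.
Tcf7, gained, intergenic, chr11:52297499-52297599: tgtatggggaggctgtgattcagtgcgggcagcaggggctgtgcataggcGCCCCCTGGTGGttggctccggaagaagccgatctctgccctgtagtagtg
Tcf3, gained, intergenic, chr10:80446331-80446431: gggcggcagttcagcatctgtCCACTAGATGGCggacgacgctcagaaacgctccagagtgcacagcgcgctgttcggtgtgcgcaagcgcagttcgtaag
Hhex, gained, intron, chr19:37419788-37419888: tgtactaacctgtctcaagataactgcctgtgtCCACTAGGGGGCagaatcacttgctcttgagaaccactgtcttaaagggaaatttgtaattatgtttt
Fli1, gained, intergenic, chr9:32562602-32562702: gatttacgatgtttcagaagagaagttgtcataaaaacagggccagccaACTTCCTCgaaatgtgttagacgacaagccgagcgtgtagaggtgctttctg
A lost intronic site of Notch1 held an RBPJ string, the binding sequence of the factor through which Notch acts, and no RUNX string.
Notch1, lost, intron, chr2:26502360-26502460: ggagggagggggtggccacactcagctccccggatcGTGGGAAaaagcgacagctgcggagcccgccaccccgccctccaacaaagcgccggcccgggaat

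Promoter peaks of Med12 were largely present in both lists, whereas about as many non-promoter peaks were lost as were kept. Of the 8067 sgCont peaks annotated as promoters, 92.3% (91.7 to 92.9) were found again in sgCbfb, against 49.8% (48.8 to 50.7) of the 10986 other peaks. The odds ratio of being found again was 12.1 (11.1 to 13.3), or 6.65 when matched on 5 classes of score. The lost peaks numbered 6138, or 32.2% of the list, with 7.67% lost among promoters and 50.2% lost elsewhere. Seen from sgCbfb, 5184 peaks, 28.6% of the list, were gained, with 7.62% gained among promoters and 45.7% gained elsewhere (odds ratio of being found again 10.2, 9.33 to 11.2, or 2.61 when matched on score and 5.32 with a minimum score of 30 in both lists). The 12915 kept peaks paired one to one. Of 11 comparisons of such shares by a two-sided Fisher's exact test on peaks with Benjamini-Hochberg adjustment, 10 passed an adjusted p of 0.05, the largest at 0.00203. These p-values cover counting error only.

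**Figure D1:**
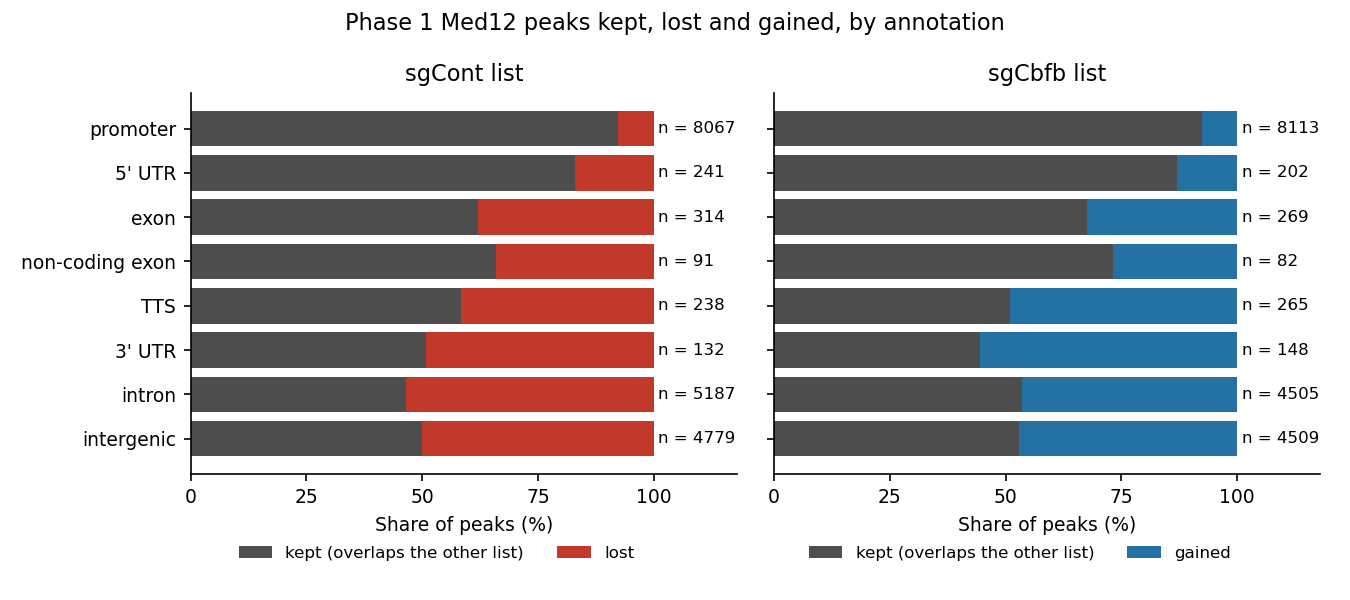
Share of Med12 peaks kept and lost in the sgCont list (left, dark and red) and kept and gained in the sgCbfb list (right, dark and blue), in percent of the peaks of each annotation, with the number of peaks beside each bar. Promoters were kept at 92.3% and 92.4%, and introns at 46.5% and 53.5%.

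The classes other than promoters differed among themselves. Peaks in 5' UTRs, which lie near a start, were found again in 83.0% (77.7 to 87.2) of 241 cases, and peaks in coding exons in 62.1% (56.6 to 67.3) of 314. Introns kept 46.5% (45.2 to 47.9) of 5187 peaks and intergenic sequence 50.0% (48.6 to 51.4) of 4779. All non-promoter peaks inside genes against intergenic peaks did not pass Fisher's exact test (49.6% against 50.0%, odds ratio 0.983, 0.911 to 1.06, adjusted p = 0.658). With promoters defined instead as peaks within 1 kb of a start, the odds ratio became 0.851 (exact test, adjusted p = 6.0e-05). Promoters made up 11.9% (11.1 to 12.8) of the gained peaks and 10.1% (9.36 to 10.9) of the lost ones, an odds ratio of 1.21 (1.07 to 1.36, exact test, adjusted p = 0.00203) that did not pass with the 1 kb definition (1.05, adjusted p = 0.414). With a minimum score of 30 in both lists it was 3.23. That cut also counts a kept peak as gained or lost when its partner scored under 30. It gave 793 gained promoter peaks, more than the 618 of the full lists, so the 3.23 does not describe the same peaks.

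The share found again fell with distance from the nearest start. Among non-promoter sgCont peaks, 73.2% (70.0 to 76.1) were found again within 1 kb, 52.6% (50.9 to 54.3) at 1 to 10 kb, 48.1% (46.7 to 49.6) at 10 to 50 kb, 43.4% (40.7 to 46.0) at 50 to 100 kb and 36.8% (33.8 to 39.9) beyond 100 kb. The sgCbfb list did not show that order, with 58.2% (54.1 to 62.1) of its 588 peaks beyond 100 kb found again and 50.5% (49.0 to 51.9) at 10 to 50 kb. Lost non-promoter peaks lay at a median of 20.0 kb from a start, kept ones at 13.9 kb and gained ones at 15.4 kb.

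Score within a list went with being found again in both directions. In the lowest of 10 equal score classes (deciles) of sgCont, 33.1% (30.9 to 35.4) of non-promoter peaks and 65.3% (58.7 to 71.3) of promoter peaks were found again. In the highest decile these shares were 84.1% (79.6 to 87.8) and 99.1% (98.5 to 99.4). The sgCbfb list was steeper, from 18.9% (17.1 to 20.9) to 97.3% (93.8 to 98.8) for non-promoter peaks. Gained peaks were low in score as a class. Their median percentile rank within sgCbfb was 18.1 outside promoters, and 5 of 4566 stood in the highest decile of that list. Lost non-promoter peaks had a median rank of 26.6 within sgCont, and 49 of 5519 stood in its highest decile.

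**Figure D2:**
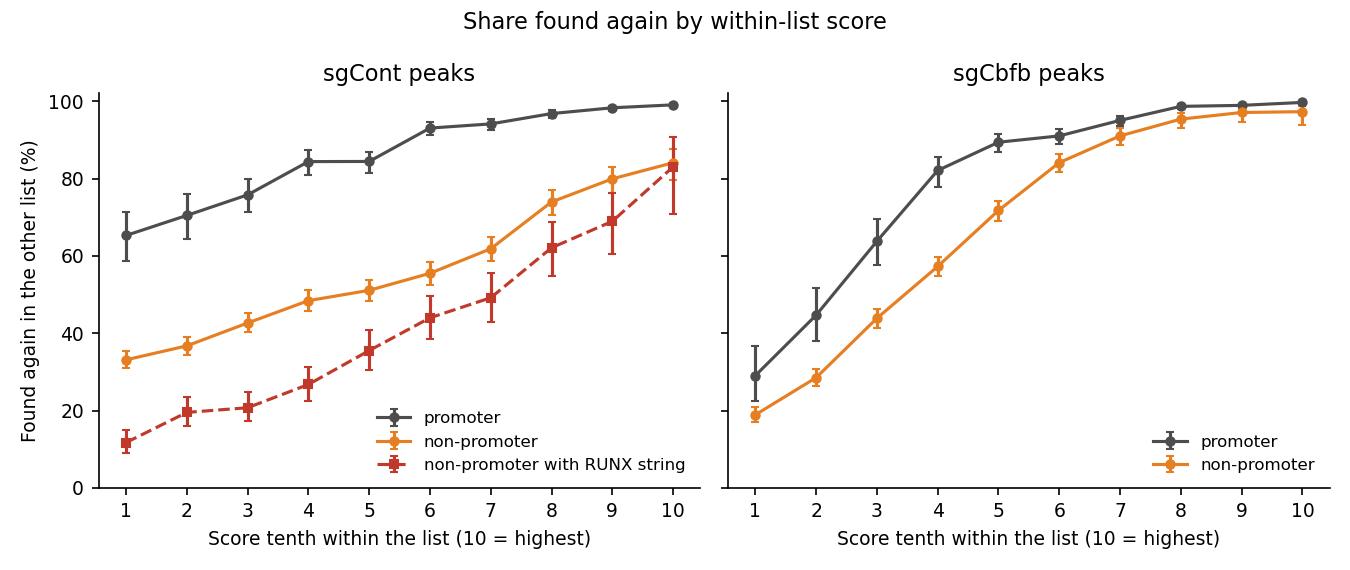
Share of peaks found again in the other list, in percent, by decile of the within-list score (1 lowest, 10 highest), for sgCont peaks (left) and sgCbfb peaks (right). Error bars are 95% Wilson intervals. Non-promoter sgCont peaks with a RUNX string (red, dashed) run from 11.7% in the lowest to 83.0% in the highest decile.

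Lost non-promoter sites carried the RUNX string more often than kept sites, and gained sites carried it at about the share of their flanks. In the 200 bp around the centre, the RUNX string was present at 36.6% (35.3 to 37.9) of 5519 lost sites, 17.5% (16.5 to 18.5) of 5462 kept sites and 5.92% (5.27 to 6.64) of 4564 gained sites. Windows of the same size 2 kb to either side held it in 5.70%, 5.81% and 5.71%. The odds ratio was 0.368 (0.337 to 0.402) for kept against lost and 0.109 (0.0953 to 0.125) for gained against lost. Lost promoters also held it more often, at 11.8% (9.48 to 14.6) of 619, than kept promoters, at 3.94% (3.52 to 4.40), and gained promoters, at 3.24% (2.10 to 4.95).

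The share found again differed with the number of RUNX strings in the window. Non-promoter sgCont peaks with no string were found again at 56.3% (55.2 to 57.4), those with 1 at 33.3% (31.5 to 35.1), those with 2 at 24.1% (19.8 to 28.8) and the 39 with 3 or more at 25.6% (14.6 to 41.1). The last 2 groups did not differ beyond their intervals. For sgCbfb peaks the order was the opposite, from 51.5% (50.5 to 52.5) without a string to 75.2% (72.5 to 77.8) with 1 and 84.5% (75.3 to 90.7) of 84 with 2, so that a site with RUNX strings listed in sgCbfb was mostly one already listed in sgCont. The intervals of sgCont peaks with and without the string were apart in each of the 9 lower deciles. In the lowest, 11.7% (9.04 to 15.04) of sgCont peaks with the string and 40.9% (38.2 to 43.7) of those without were found again, and in decile 9 68.9% (60.6 to 76.2) and 83.4% (79.5 to 86.7). In the highest decile the shares were 83.0% (70.8 to 90.8) and 84.3% (79.3 to 88.2), and the intervals overlapped.

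Gained sites held the CTCF and PU.1 strings more often than lost sites. The CTCF consensus was present at 12.3% (11.4 to 13.3) of gained non-promoter sites, 2.47% (2.09 to 2.92) of kept sites and 0.453% (0.307 to 0.668) of lost sites, with 0.230% in the flanks of gained sites. The odds ratio for gained against lost was 30.8 (20.6 to 46.1), with 20.1 in 400 bp windows. At a minimum score of 30 it was 50.0 (18.4 to 136), which rests on 4 of 2396 lost sites. That cut also turns some kept peaks into gained or lost ones. The PU.1 string, bound by the myeloid and progenitor factor encoded by Spi1, was at 13.1% (12.2 to 14.1) of gained and 8.90% (8.17 to 9.68) of lost sites (odds ratio 1.55, 1.36 to 1.76, and 2.72 without the peaks that overlap a CTCF peak), while kept sites held it in 13.9% (12.97 to 14.8). The AP-1 string was at 9.64% (8.82 to 10.53) of gained, 9.10% (8.36 to 9.89) of kept and 7.43% (6.77 to 8.15) of lost sites (gained against lost 1.33, 1.16 to 1.53). The RBPJ string was slightly more frequent at lost sites, 6.03% (5.44 to 6.69), than at kept sites, 4.56% (4.04 to 5.14), against 4.09% in the flanks of the lost sites. Median GC content was 51.0% at lost, 53.5% at kept and 49.0% at gained sites, and its part in these string counts was not tested.

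**Figure D3:**
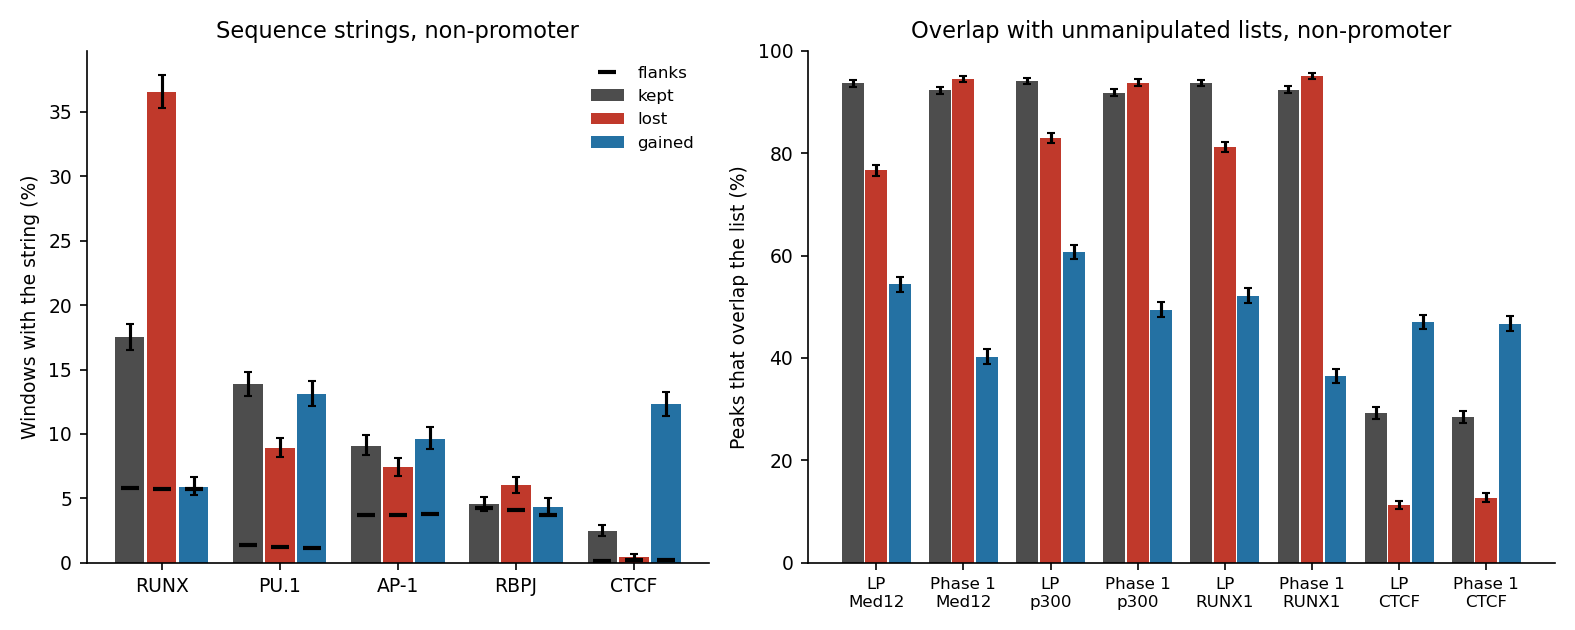
Left, share of non-promoter kept (dark), lost (red) and gained (blue) sites whose 200 bp window holds each string, in percent, with black dashes for flanking windows. Right, share of the same sites that overlap each list from unmanipulated cells; error bars are 95% Wilson intervals. The RUNX string stands at 36.6% of lost sites and the CTCF string at 12.3% of gained sites.

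The lists from unmanipulated cells overlapped the 3 classes to different extents. They did not define the classes, but the Phase 1 Med12 list shares antibody and stage with sgCont. Of the non-promoter sgCont peaks, 10260 overlapped it and 726 did not. Lost peaks are sgCont peaks and gained peaks are not. A higher share of lost than of gained peaks in the Phase 1 lists therefore largely follows from the definition. These odds ratios describe the classes and do not test an effect of Cbfb loss. Of the lost peaks, 92.7% (92.0 to 93.3) overlapped a Med12 peak of unmanipulated Phase 1 cells, and of the gained peaks 41.7% (40.4 to 43.0), an odds ratio of 0.0567 (0.0508 to 0.0633). It was 0.189 at a minimum score of 30, which also turns some kept peaks into gained or lost ones, and 0.114 without CTCF-overlapping peaks. Outside promoters, a Phase 1 peak of p300, the acetyltransferase found at active enhancers, was present at 93.8% (93.1 to 94.4) of lost and 49.4% (48.0 to 50.9) of gained sites (odds ratio 0.0647, 0.0572 to 0.0732, and 0.144 and 0.103 under the same alternatives). Gained non-promoter sites overlapped the LP lists more often than the Phase 1 lists, with 54.4% (53.0 to 55.8) in LP Med12 against 40.3% (38.8 to 41.7) in Phase 1 Med12. Lost sites had the opposite order, 76.6% (75.5 to 77.7) in LP and 94.5% (93.9 to 95.1) in Phase 1. Kept sites were near the lost ones in Phase 1 Med12, at 92.2% (91.5 to 92.9), and in Phase 1 p300, at 91.8% (91.1 to 92.5). In LP Med12 the kept sites were at 93.6% (92.9 to 94.2). A Phase 1 RUNX1 peak lay at 92.4% (91.7 to 93.1) of kept, 95.1% (94.4 to 95.6) of lost and 36.5% (35.1 to 37.9) of gained non-promoter sites. A Phase 1 CTCF peak lay at 46.7% (45.3 to 48.2) of gained, 28.4% (27.3 to 29.7) of kept and 12.7% (11.9 to 13.6) of lost non-promoter sites. Of the gained sites, 316 (6.92%, 6.22 to 7.69) overlapped none of the other 15 lists, against 63 (1.14%, 0.893 to 1.46) of the lost sites.

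The gained non-promoter sites fell into a CTCF-bound and a CTCF-free set with different sequence content. The 2190 gained sites with a CTCF peak at either stage held the CTCF string in 25.6% and the PU.1 string in 3.84%, and 16.9% of them had a Phase 1 Med12 peak. The 2376 without a CTCF peak held the PU.1 string in 21.7% and the AP-1 string in 14.3%, and 61.7% had a Phase 1 Med12 peak. Both sets were low in the RUNX string, at 7.49% and 4.465%, and both had a median percentile rank of 18.1. Among lost sites the RUNX string was present at 33.3% of the 868 with a CTCF peak and 37.2% of the 4651 without, a difference that was not tested.

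Sites that unmanipulated cells occupied with Med12 in Phase 1 but not in LP were mostly missing from sgCbfb. Of 1265 non-promoter sgCont peaks of this kind, 14.2% (12.3 to 16.2) were found again, against 54.1% (53.0 to 55.1) of 8995 present at both stages and 72.0% (67.1 to 76.4) of 353 present in LP and not in Phase 1. The Phase 1 and LP kinds had similar median percentile ranks, 20.5 and 20.9. All non-promoter sgCont peaks of the same score deciles were lost at 56.6% and 56.4%, while these 2 kinds were lost at 85.8% and 28.0%. With a RUNX string, 5.60% (3.73 to 8.33) of 393 Phase 1 sites were found again, and without it 17.9% (15.5 to 20.6) of 871. For sites of both stages these shares were 36.5% (34.6 to 38.4) and 60.9% (59.7 to 62.0). In the other direction, 1000 of the 1253 non-promoter sgCbfb peaks that matched LP Med12 and not Phase 1 Med12 were gained (79.8%). Peaks outside the Phase 1 Med12 list were mostly outside sgCont too, so this share was largely set by the selection. Of all 3149 non-promoter sgCbfb peaks outside that list, 2728 were gained (86.6%). The excess over the 45.7% of all non-promoter sgCbfb peaks is thus not particular to LP sites. Peaks in neither Med12 list were gained at 91.1% of 1896, those in Phase 1 and not in LP at 66.8% of 530, and those of both stages at 23.5% of 6307. Among promoters, 53.2% (46.3 to 60.01) of 201 sgCont peaks of the Phase 1 kind were found again against 94.8% (94.3 to 95.3) of 7289 present at both stages. Promoter peaks of the LP kind did not follow the order seen elsewhere, with 85.3% (81.1 to 88.7) of 333 found again, and 30.2% of 417 such sgCbfb promoter peaks were gained.

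**Figure D4:**
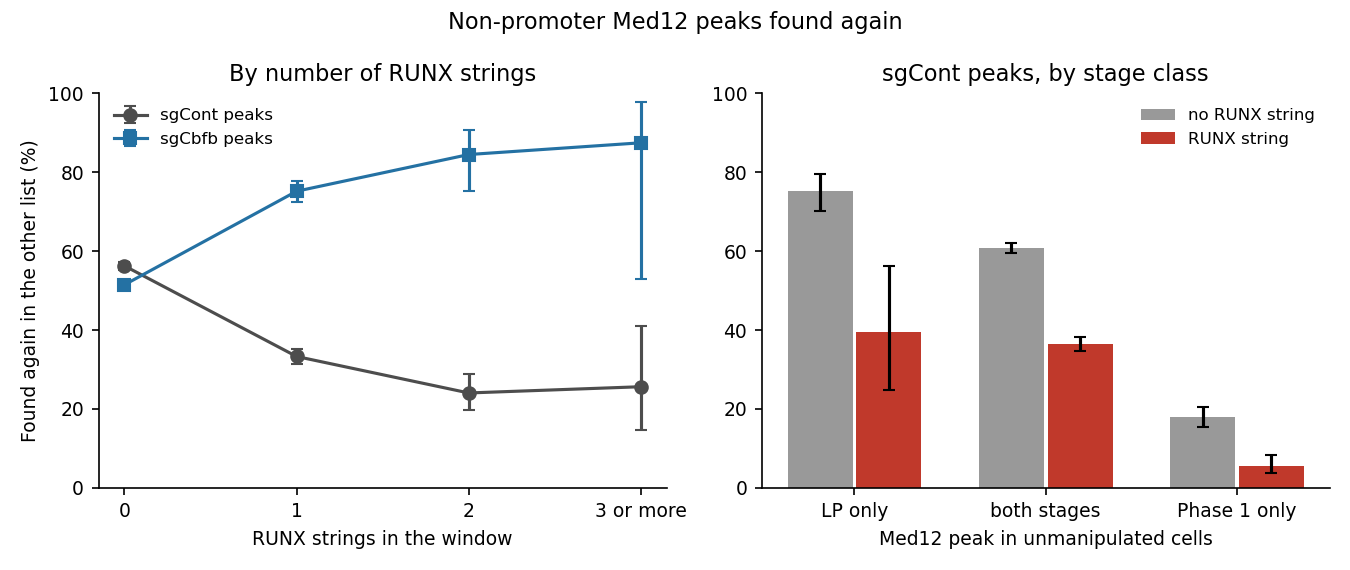
Left, share of non-promoter peaks found again in the other list, in percent, by number of RUNX strings in 200 bp, for sgCont (dark) and sgCbfb (blue) peaks. Right, the same share for sgCont peaks by the stage at which unmanipulated cells had a Med12 peak, without (grey) and with (red) a RUNX string; error bars are 95% Wilson intervals. Phase 1 sites with a RUNX string are lowest, at 5.60%.

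Kept sites with a RUNX string moved down in the ranking. Ranks were expressed as percentiles within each list, and the difference was taken as sgCbfb minus sgCont for the 12915 pairs, so that the shift is relative to the other peaks of the lists. The scores of the pairs were correlated at a Spearman rho of 0.9315 over 7448 promoter peaks and 0.632 over 5467 others. The median shift was 4.07 for kept non-promoter peaks without a RUNX string, -8.42 for 863 peaks with 1 and -20.4 for 83 peaks with 2, of which 73 fell. The 135 with a CTCF string had a median shift of 19.3, and 121 of them rose. The 80 kept non-promoter peaks that overlapped a Phase 2 peak of Notch1-IC, the intracellular part of Notch1, had a median shift of -29.4, and 76 fell. For the 48 that overlapped a Phase 1 peak of Notch1-IC, the stage of the cells compared, the median shift was -15.5, and 39 fell. Loss itself was not more frequent at Phase 1 Notch1-IC sites. Of non-promoter sgCont peaks with such a peak, 41 of 89 were lost (46.1%), against 50.3% of those without. With a Phase 2 Notch1-IC peak, 135 of 215 were lost (62.8%), against 50.0% of those without. The classes started from different median ranks in sgCont, at 41.7 without a RUNX string, 50.6 with 1 and 57.4 with 2. The median was 23.9 with a CTCF string, 82.4 with a Phase 2 Notch1-IC peak and 81.4 with a Phase 1 Notch1-IC peak. The part of the starting rank in these shifts was not tested.

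Among the largest single falls in rank were those near Gm11346 (from 79.9 to 2.06), Mir3970, Sptbn1 and 4930430J02Rik, and the last of these had 3 RUNX strings. The largest rises were near Fhad1os1 (from 13.9 to 86.0), Fbxo11, Etv6, Mcl1, which encodes a survival factor of the Bcl2 family, and Slc44a1. None of these 5 held a RUNX string, and the Mcl1 and Slc44a1 sites held a PU.1 string.

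The highest scores among the lost peaks outside promoters belonged to ribosomal RNA repeats. Of the 5 highest, 4 were annotated as large-subunit rRNA repeats, nearest to Pex2 (score 1029.4), Cdk8 (888.6), Axin2 (554.8) and Filip1l (481.8), and the remaining one lay in the 3' UTR of Lars2 (928.2). Such repeats also stood at the top of the kept non-promoter peaks, nearest to Txndc11 (739.2) and Myl12b (313.2). Ribosomal RNA or satellite repeats were annotated at 16 of the lost, 3 of the kept and 3 of the gained non-promoter sites. The highest lost promoter peaks were those of Mir466d (242.2), Itsn1 (139.0), Gm11520 (127.4), Pgls (125.9) and Pigv (113.6), and the highest gained were those of Dcaf11 (139.1), Cryzl1 (136.0), Hnrnpa1 (130.2), Arid5a (109.6) and Dyrk1b (101.9). The lost Itsn1 and the gained Cryzl1 peak were both annotated to the Itsn1 promoter, and 56 of the 619 lost promoter peaks (9.05%, 7.03 to 11.6) had a gained peak centred within 1 kb. Outside promoters this was the case for 136 of 5519 (2.46%, 2.09 to 2.91). The highest gained non-promoter peaks were nearest to Crlf2 (139.7), Dot1l (126.0), Lyl1 (114.4), 4931428F04Rik (109.4) and Mir142 (105.9), of which the Crlf2 peak at 2.07 kb stood beside a lost one at 1.48 kb. The highest kept peaks included the promoters of Clic4, which ranked at 99.96 in sgCont and 99.95 in sgCbfb, Cenpu, Gpbp1 and Nmt2.

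Loss was spread over many genes. The nearest genes of the lost non-promoter peaks numbered 3612, of which 421 had 3 or more lost peaks and 82 had 5 or more. Of 1150 genes with at least 3 non-promoter sgCont peaks, 131 lost all of them and 99 lost none. The genes with the most lost peaks were Gm17746 (15 lost, 3 kept), Mir7094-2 (11 lost, 1 kept), Dad1 (10 lost, 4 kept), Fut8 (10 lost, 3 kept), Chd7, Gse1, Rreb1 and Runx1 (9 lost each). Of the 11 lost peaks nearest to Mir7094-2, which lay up to 510 kb from its start, 9 held a RUNX string. Dad1 is the gene beside the T cell receptor alpha locus. Of 3552 genes nearest to a gained non-promoter peak, 182 had 3 or more. Irf2bp2 had 7, and 1700016G22Rik, Chn2, Klhl25, Zfp608 and Zmynd8 had 6 each, of which 5 of those of Zmynd8 overlapped a Phase 1 CTCF peak.

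Gene lists are described by their counts beside the share of all peaks, and were drawn up with earlier results of these data known. Of 41 non-promoter sgCont peaks nearest to 15 of 16 T-lineage transcription factor genes, 28 were lost, 68.3% (53.0 to 80.4) against 50.2% of all non-promoter peaks and 48.5% of those in the same score deciles. Of their 15 promoter peaks 7 were lost, 46.7% (24.8 to 69.9), against 7.67% of all promoters and 15.5% in the same deciles. All 17 of their non-promoter peaks of the Phase 1 kind were lost, where all peaks of that kind were lost at 85.8%. Surface markers of early T cells lost 21 of 28 non-promoter peaks (75.0%, 56.6 to 87.3), against 52.8% in the same deciles, and 4 of 6 promoter peaks, against 16.5%. T cell receptor and signaling genes lost 25 of 43 (58.1%, 43.3 to 71.6), which was near the 51.6% of the same deciles, and 5 of 8 promoter peaks, against 15.3%.

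Tcf7, which encodes TCF1, an initiator of the T-lineage program, lost all 5 of its sgCont peaks. They were at -35.6 kb with a score of 99.9, at -31.4 kb with 96.0, at -22.4 kb with 36.9, in an intron at 16.8 kb with 30.2, and at the promoter with 22.2. The 2 highest stood at percentile ranks of 92.0 and 91.2 and held no RUNX string. The peak at -31.4 kb began 66 bases beyond the end of a Phase 2 Notch1-IC peak. The gained Tcf7 site at -14.5 kb, whose CTCF string is printed above, had a score of 19.9.

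Gata3, a zinc-finger factor required for T cell development, lost its promoter peak and the 4 peaks between 270.8 kb and 319.8 kb from its start, the highest with a score of 92.1 at 284.5 kb. It kept 3, at -1.08 kb, 75.9 kb and 76.9 kb. The peak at 76.9 kb fell from rank 78.9 to 33.5, while that at -1.08 kb moved from 66.6 to 73.6. Bcl11b, the factor of T-lineage commitment, lost both of its peaks (scores 20.1 and 16.7). Lef1, a relative of Tcf7, lost its promoter peak and 2 of 3 others. Satb1, a chromatin organizer, lost its promoter peak (19.5) and kept an intronic peak, which went from rank 79.2 to 56.8. The promoters of Tcf3 (E2A) and Zfpm1 were kept. That of Tcf3 stood at rank 95.5 in sgCont and 96.4 in sgCbfb.

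Among surface and signaling genes, Il2ra, which encodes CD25, lost 4 of 5 peaks, the highest at -19.5 kb with a score of 57.4. Cd28, a costimulatory receptor, lost all 4, including its promoter (32.3) and the RUNX site at -43.5 kb (52.5), and a promoter-annotated peak at -0.543 kb was gained (29.6). Zap70, the kinase that binds phosphorylated CD3 chains, lost all 3, of which the highest (65.7) lay in an intron of its neighbor Tmem131. Promoter peaks of Lck (52.8 and 23.3), Rag1 (26.1), Thy1 (37.9), Cd7 (32.2) and Cd2 (18.3) were lost. The promoter peak of Lat, an adaptor of T cell receptor signaling, was kept but fell from rank 79.3 to 36.2.

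**Figure D5:**
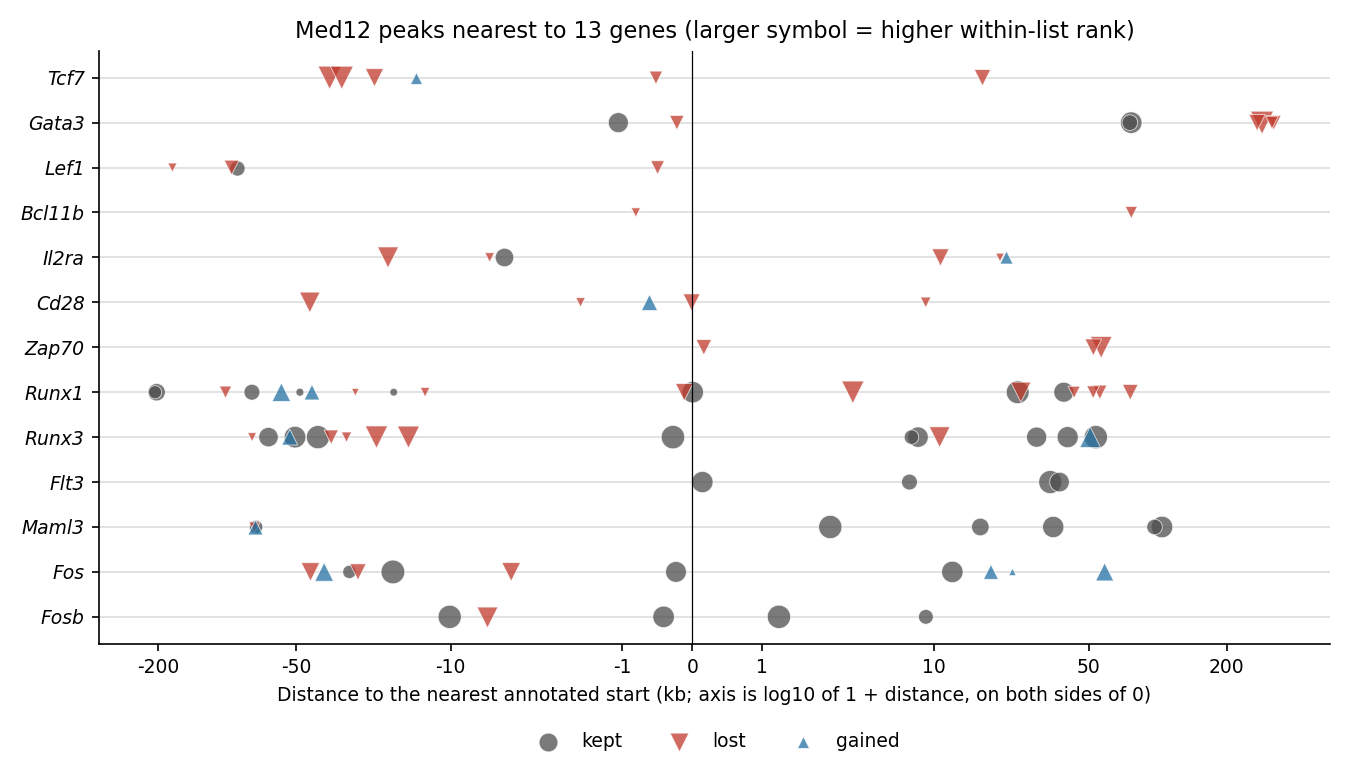
Med12 peaks nearest to 13 genes by distance from the nearest annotated start in kb (log scale on both sides of 0), kept (dark circles), lost (red, pointing down) and gained (blue, pointing up). Symbol area grows with percentile rank within the list. All 5 sgCont peaks of Tcf7 are lost, and all 4 of Flt3 are kept.

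In the Notch pathway both outcomes occurred, with 14 of 33 non-promoter peaks (42.4%, 27.2 to 59.2) and 2 of 11 promoter peaks lost, beside 45.9% and 8.90% of all such peaks in the same score deciles. Notch1 lost its intronic peak (51.9), printed above. Dtx1, a Notch target, lost all 3 of its peaks, at 25.8 kb (53.1), 23.0 kb (28.7) and the promoter (21.6). Hes1, another target, kept its promoter peak at nearly the same rank (81.3 and 80.3), and the intronic Notch3 peak at 2.45 kb was kept at rank 37.7 after 78.7. Maml3, a coactivator of Notch, lost 1 of its peaks and kept 6.

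Runx1 kept 1 promoter-annotated peak (rank 78.5 and then 69.6, with 2 RUNX strings) and lost another (33.9). It also lost 9 of 16 non-promoter peaks, and the highest of them lay in an intron at 3.92 kb with a score of 77.1. Its kept intronic peak at 24.3 kb fell from rank 90.3 to 63.6, while peaks at -203 kb and -206 kb rose from 48.2 to 77.6 and from 23.2 to 62.2. Runx3 lost 6 of 14, among them those at -22.0 kb (78.2) and -15.7 kb (72.5), and its kept promoter peak moved from rank 95.1 to 73.3. The list of RUNX family members and partners lost 27 of 50 non-promoter peaks (54.0%, 40.4 to 67.0), against 46.9% in the same deciles. At Cbfb itself, 1 promoter peak was listed in both, with scores of 89.8 in sgCont and 60.5 in sgCbfb. These scores are not comparable between lists, and the peak says nothing of whether the gene was edited. Cbfa2t3, which encodes the corepressor ETO2, kept a peak at -1.74 kb that went from rank 98.1 to 58.8.

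Genes of lymphoid cytokine receptors and their JAK, STAT and SOCS signaling proteins lost 26 of 47 non-promoter peaks (55.3%, 41.2 to 68.6), against 49.4% in the same score deciles. Of these, Jak1 and Socs1 lost 5 each, and Socs3 and the receptor gene Il21r lost 3 each. Flt3, the progenitor receptor tyrosine kinase, kept all 4 of its peaks, including the printed site at 33.9 kb that has 3 RUNX strings in 200 bp (rank 91.8 and then 74.0). Stem and progenitor factor genes lost 23 of 41 non-promoter peaks (56.1%, 41.0 to 70.1), against 51.9% in the same deciles. They also lost 3 of 9 promoter peaks (33.3%, 12.1 to 64.6), against 7.25%. All 8 of their non-promoter peaks of the Phase 1 kind were lost, where all peaks of that kind were lost at 85.8%. B-lineage genes lost 14 of 18 non-promoter peaks (77.8%, 54.8 to 91.0), against 55.7% in the same deciles. Of these 14, 7 were nearest to Bach2, a repressor that T-lineage cells also express. Myeloid genes lost 7 of 17 (41.2%, 21.6 to 64.0), against 52.3% in the same deciles. They gained 12 of 22 (54.5%), near the 45.7% of all non-promoter sgCbfb peaks. Gained shares of the lists lay on both sides of that value. They ran from 20.8% (5 of 24, T cell receptor and signaling genes) to 69.2% (9 of 13, B-lineage genes), with ribosomal protein genes at 59.4% (19 of 32). Spi1, which encodes PU.1, kept its promoter at rank 48.3 and then 62.6 and gained an intronic peak at 4.87 kb (26.9), and the promoter of the myeloid factor Irf8 went from 61.9 to 78.3. AP-1 genes lost 9 of 24 non-promoter peaks (37.5%, 21.2 to 57.3), against 45.0% in the same deciles. Of their 12 promoter peaks, those of Batf and Batf3 were lost (16.7%, 4.70 to 44.8), against 9.39%. The kept promoters of Fos and Fosb moved from 72.8 to 82.1 and from 78.7 to 92.0, where 4757 of all 7448 kept promoter peaks rose in rank. No promoter peak was lost among 64 of cytoplasmic ribosomal protein genes (0 of 64, interval up to 5.66%) or 23 of Mediator subunit genes, where all promoters of the same deciles were lost at 3.52% and 5.86%. Non-promoter peaks of these 2 lists were lost in 14 of 29 and 13 of 23 cases, against 50.06% and 50.1% in the same deciles.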

How the data were processed

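Med12 ChIP-seq was done on 2 replicate samples of each group. As deposited, each list holds the peaks that the authors called with HOMER (factor style, against a control sample) on reads aligned to mm10 with Bowtie 1.1.1, kept when reproducible between replicates (IDR) and given a peak score of at least 15. How the score was scaled is not given in the sources used here, so it was ranked within a list only. Distances to the nearest start (another deposited column) and annotations are HOMER's. The lists carry no read totals, and the study's methods give only an approximate read number common to all samples, so depth could not be compared between the groups. Gene names were taken from the nearest RefSeq transcript, and 20 sgCont and 28 sgCbfb peaks had no match.

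Peaks were intersected at 1 bp, strings were searched in 200 bp around centres and in windows 2 kb away, and shares were compared by Fisher's exact test (Python 3.11.15, scipy 1.17.1, pysam 0.24.0), with code tested on simulated data. Lists of genes and members were chosen with earlier results of these data known. Named genes are the 5 highest-scored peaks per class, the 8 genes with most lost or gained peaks, the 5 largest rank changes each way, members of 12 gene lists, and Cbfb. Some items that this rule names are not reported here. The stage classes, shares standardised to score deciles and the exclusion of CTCF-overlapping peaks were chosen after seeing the data.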

Additional observations from a re-analysis of the deposited data

How the results depend on the processing

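No paired analysis was possible because each deposited list combines both replicates, and leaving out a replicate was not possible for the same reason. Of 103 alternative values for 13 results, 92 kept the direction and the side of the threshold or, for a share with no test, stayed within its counting interval. The lost share of 32.2% became 24.4% at a minimum score of 30 in both lists, 34.1% when an overlap of 50% of both peaks was required, 30.5% with equal numbers of top-scored peaks and 37.7% without peaks that overlap a CTCF peak. The gained share of 28.6% became 20.99%, 30.7%, 30.5% and 24.7% under the same settings. With promoters taken as peaks within 1 kb of a start, the odds ratio of the promoter share of gained against lost peaks was 1.05 and no longer passed, and that of intragenic against intergenic peaks was 0.851 and passed. The latter was 1.05, in the opposite direction, at a minimum score of 30. The causes were not tested. The odds ratio of the RUNX string in kept against lost sites ranged from 0.342 to 0.412, and in gained against lost sites from 0.0799 to 0.162. Neither read depth nor the spread between cultures could be assessed from these lists.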
